A study of Mus musculus with 6 samples.

Results

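The regions described here are stretches of the mouse genome in which monomethylated lysine 4 of histone H3 (H3K4me1) lay at the start of a protein-coding gene in embryonic whisker pads. CUT&Tag, the assay used, brings a transposase to the marked chromatin through an antibody, and the fragments that the enzyme cuts out are sequenced. The series holds 6 samples of freshly isolated cells from whisker pads at embryonic day 12, strain B6/J2, which the study treats as wild type. In 3 pads the antibody recognised H3K4me1, and the other 3 samples used IgG. These were not analysed here, and no background level is given. The titles name all 6 samples as whisker pad, while the source field of 4 of them, including H3K4me1 pads 2 and 3, names adult kidney. Samples were grouped by title, each value is given per pad, and genes of the adult kidney are counted beside the facial genes below. Nothing states whether the 3 pads came from separate embryos, so an error over pads may be partly technical. A whisker pad holds mesenchyme, surface ectoderm, muscle precursors, vessels and nerve, so a peak cannot be assigned to a cell type.

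Peaks of the 3 lists that overlapped by at least 1 bp were merged into 19251 regions, and 8840 regions on chromosomes 1 to 19 held a peak of every pad. Of these, 8526 were shorter than 15000 bp, and 1455 of them (17.1%) came within 1 kb of a protein-coding transcript start of the GENCODE vM21 basic annotation. These 1455 members covered 9.55 Mb in all, with a median length of 5824 bp. They were chosen by position, so neither the signal nor the place of the mark relative to the start within that 1 kb was used. The length limit fell between Cyp26b1, whose region of 14991 bp was the longest inside it, and Rai1, whose region of 15005 bp lay just outside. The 314 wider regions are described only where a gene of interest fell in them.

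Monomethylation at lysine 4 is best known as a mark of enhancers, the distal elements that raise transcription of a gene. At the promoters of active genes the nucleosomes nearest the start usually carry the trimethylated form, and the monomethylated form tends to flank them. Mammalian promoters also fall into a CpG-rich class, common at housekeeping and developmental genes, and a CpG-poor class, common at genes of differentiated tissues. Trimethylation was not measured in these samples.

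Sequence just upstream of 7 member starts is shown first, because the position of the mark differed with the CpG content around the start. In all of them 150 bases are printed 5′ to 3′ in the direction of transcription, ending at the base before the 5′-most annotated start, with every CpG in capitals. They were read from the RefSeq copy of GRCm38 (mm10) outside annotated transcripts, and the genes were picked after their values were seen. The first 3 starts were not CpG-rich and lay under a peak in all 3 pads. They belong to Col1a1 (a chain of type I collagen, plus strand, chr11:94936074-94936223), Postn (periostin, an adhesive matrix protein, plus strand, chr3:54360959-54361108) and Myog (myogenin, a muscle transcription factor, plus strand, chr1:134289839-134289988). They held 4, 2 and 2 CpGs in that order.
Col1a1: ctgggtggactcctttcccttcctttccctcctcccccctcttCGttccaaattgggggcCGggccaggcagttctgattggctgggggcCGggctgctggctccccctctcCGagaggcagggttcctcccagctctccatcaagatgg
Postn: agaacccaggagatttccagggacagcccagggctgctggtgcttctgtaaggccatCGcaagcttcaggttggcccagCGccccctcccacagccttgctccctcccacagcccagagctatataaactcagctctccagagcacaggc
Myog: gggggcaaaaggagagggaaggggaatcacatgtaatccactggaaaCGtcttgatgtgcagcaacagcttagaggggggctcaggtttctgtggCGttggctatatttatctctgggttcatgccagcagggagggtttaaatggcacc

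The next 4 starts were CpG-rich and lay under a peak in 0 of 3 pads, although a member region stood within 1 kb of each. They belong to Bmp2 (a BMP ligand of the whisker placode, plus strand, chr2:133552009-133552158), Ror2 (a receptor for Wnt ligands, minus strand, chr13:53286125-53286274), Fzd1 (a Frizzled receptor, minus strand, chr5:4758036-4758185) and Hey1 (a transcriptional repressor downstream of Notch, minus strand, chr3:8667257-8667406). They held 28, 19, 13 and 22 CpGs.
Bmp2: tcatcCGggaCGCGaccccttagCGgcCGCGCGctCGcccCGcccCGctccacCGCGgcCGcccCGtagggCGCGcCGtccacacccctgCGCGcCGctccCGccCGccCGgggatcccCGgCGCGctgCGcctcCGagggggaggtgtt
Ror2: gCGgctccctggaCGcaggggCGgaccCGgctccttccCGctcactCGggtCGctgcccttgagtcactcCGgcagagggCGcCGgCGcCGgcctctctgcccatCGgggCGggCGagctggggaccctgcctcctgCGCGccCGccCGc
Fzd1: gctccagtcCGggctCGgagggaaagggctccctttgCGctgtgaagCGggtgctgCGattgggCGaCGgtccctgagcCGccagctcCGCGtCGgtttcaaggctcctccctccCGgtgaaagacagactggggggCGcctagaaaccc
Hey1: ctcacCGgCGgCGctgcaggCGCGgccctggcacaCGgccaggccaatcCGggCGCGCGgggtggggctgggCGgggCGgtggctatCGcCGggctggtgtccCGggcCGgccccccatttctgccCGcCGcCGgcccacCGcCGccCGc

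The members reached the starts of 1452 protein-coding genes, which is 7.01% of the 20720 genes with an annotated start on these chromosomes. Counted pad by pad, 12.1%, 11.9% and 8.33% of genes had a peak within 1 kb of a start in pads 1, 2 and 3. Pad 3 was the lowest, and a region needed a peak of every pad, so leaving pad 3 out gave 2183 genes. Of the 1452 genes, 1210 had a member region at their 5′-most start and 242 only at another start. The merged region held a start base in 999 members, and the other 456 only came within 1 kb of a start. Most regions, 1357, came within 1 kb of the starts of a single gene, and 1353 genes had a single region. Zfp423, which codes for a zinc finger transcription factor, had the most, with 4 separate regions.

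The highest point of the mark mostly lay off the start. The start base itself lay under a peak in 54.0%, 62.8% and 43.6% of members in pads 1, 2 and 3 (mean 53.5% ± 9.60, SD, n = 3 pads). The highest pileup, meaning the stretch of the peak covered by most fragments, lay within 500 bp of a start in 15.1%, 17.3% and 13.5% of members. The mean was 15.3%, and without pad 3, which also admitted more regions, it was 20.3%. It lay downstream of the nearest start, inside the transcribed direction, in 70.8%, 71.5% and 68.7% of members. All 3 pads were above 50% (mean 70.3% ± 1.45), and the exact two-sided permutation test over pads gave p = 0.25, the smallest value that 3 pads allow. The median position of the highest pileup was 1424, 1336 and 1454 bp downstream. The histogram has its highest bin at 1.5 to 2 kb downstream in each pad and a smaller rise at the start.

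**Figure D1:**
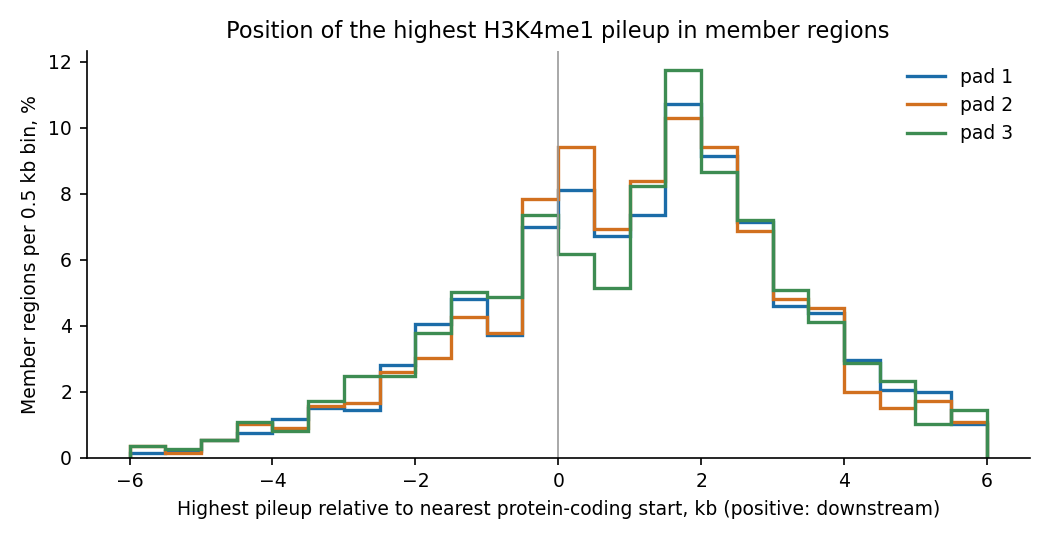
Position of the highest H3K4me1 pileup in the 1455 members, as the percent of members in bins of 0.5 kb by distance from the nearest protein-coding start in kb (positive values lie downstream), with a line for each pad. In all 3 pads most members have it downstream of the start, 70.8%, 71.5% and 68.7% in pads 1, 2 and 3, and the lines follow each other closely.

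Starts were then split by CpG content in the 1 kb around them. A start was called CpG-rich with a GC content of at least 55% and at least 0.6 times the CpGs that its bases would give by chance order (observed over expected). Of 1209 5′-most member starts, 684 (56.6%) were CpG-rich, beside 41.3% of all 20720 5′-most starts. Over every annotated start within 1 kb of a member's peaks the excess was smaller, 45.8%, 46.2% and 45% by pad beside 40.8% of all starts (mean difference 4.84 percentage points), and it turned to -16.7 points when the start base had to lie under the peak. CpG-rich member starts lay under a peak in 24.9%, 40.1% and 11.5% of cases in pads 1, 2 and 3 (mean 25.5% ± 14.3). The other 525 lay under a peak in 74.7%, 82.5% and 63% of cases (mean 73.4% ± 9.78). The lowest pad of the second class stood above the highest pad of the first. The difference was -49.8, -42.4 and -51.5 percentage points (mean -47.9 ± 4.83, exact permutation p = 0.25, the smallest possible).

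CpG-rich starts had peaks only on the downstream side in 52.3%, 44.2% and 63.6% of cases, and the other starts in 17.1%, 11.2% and 23.2%. Their highest pileup lay at a median of 2159, 2091 and 2077 bp downstream, compared with 851, 797 and 977 bp at the other starts. It fell within 500 bp of the start in 2.63%, 2.49% and 1.75% of CpG-rich starts and in 19%, 21.9% and 18.3% of the others. The median total signal, as a percentile of the pad's own peak list, was 72.3, 69.2 and 58.4 for CpG-rich starts and 75.6, 73.3 and 59.2 for the others. In each pad the CpG-rich class was the lower, by less than the spread between pads.

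**Figure D2:**
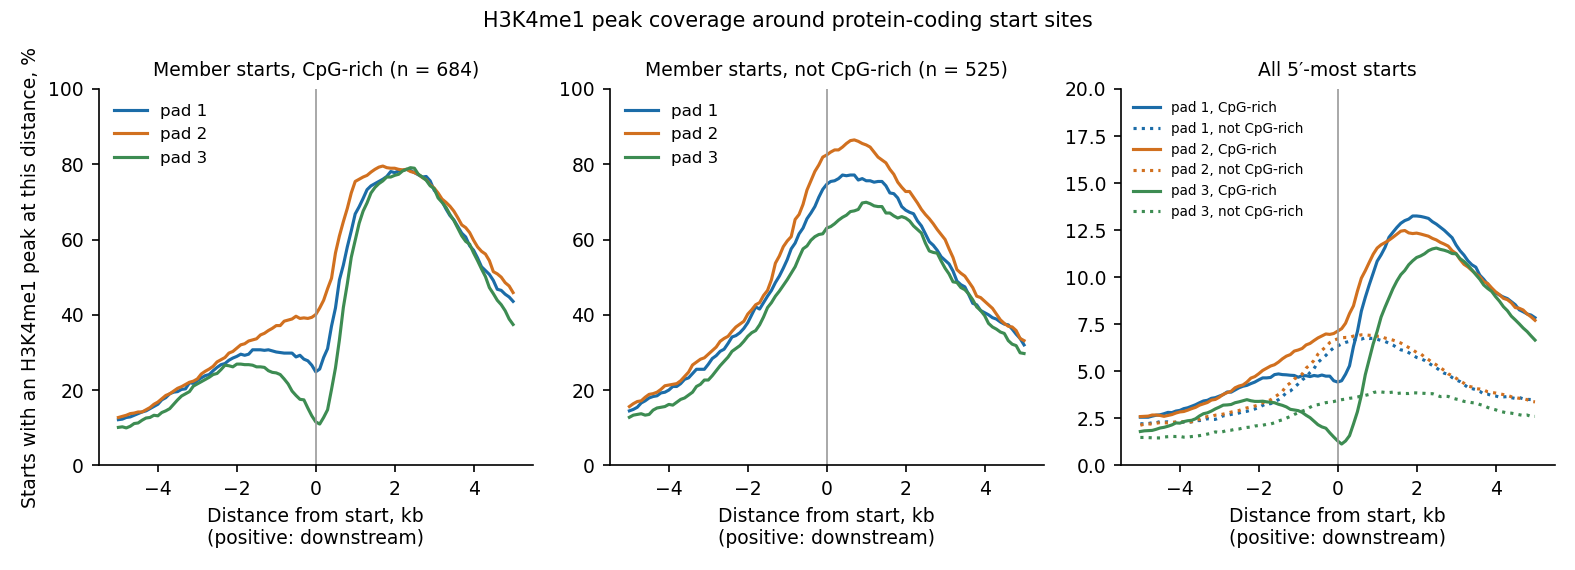
Percent of starts with an H3K4me1 peak at each distance from the start in kb (positive values lie downstream), by pad, for 684 CpG-rich member starts (left), 525 other member starts (middle) and all 5′-most starts of the genome, marked or not (right, on its own scale). CpG-rich starts have a dip at the start in pads 1 and 3, with 24.9% and 11.5% covered, and a maximum near 2 kb downstream, whereas the other starts have their maximum within 1 kb of the start.

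Profiles over all 5′-most starts, members included, do not depend on the rule. Over all 8565 CpG-rich 5′-most starts, 4.42%, 7.13% and 1.3% lay under a peak at the start itself, and 13.3%, 12.3% and 11.0% had a peak 2 kb downstream. Over the other 12155 starts the shares were 6.34%, 6.72% and 3.45% at the start and 5.73%, 6.0% and 3.85% at 2 kb downstream. From the start to 2 kb downstream the share rose in each pad at CpG-rich starts. At the other starts it fell in pads 1 and 2 and rose slightly in pad 3. At 1 kb upstream the CpG-rich starts stood at 4.68%, 6.13% and 2.91%. Their share at the start was thus below that 1 kb upstream in pads 1 and 3 and above it in pad 2.

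With finer steps of CpG content the coverage of member starts was not a straight line. Below 0.2 observed over expected, 69.6%, 72.2% and 63.3% of 79 starts were covered. Between 0.2 and 0.4 the shares were highest, 86.6%, 89.3% and 78.6% of 187 starts. From 0.8 upward they were lowest, 16.8%, 27.1% and 8.26% of 351 starts, and all 3 pads kept this order of the lowest step. The 3 member starts with the highest CpG observed over expected were those of Dot1l (a histone methyltransferase), Tent4a and Arhgef7, each covered in 0 pads with the highest pileup 1540 to 2752 bp downstream. The 3 with the lowest, Fam169b, Sult6b2 and 4930558K02Rik, were also covered in 0 pads, with the pileup 1819 to 4067 bp downstream, and so did not follow the trend.

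**Figure D3:**
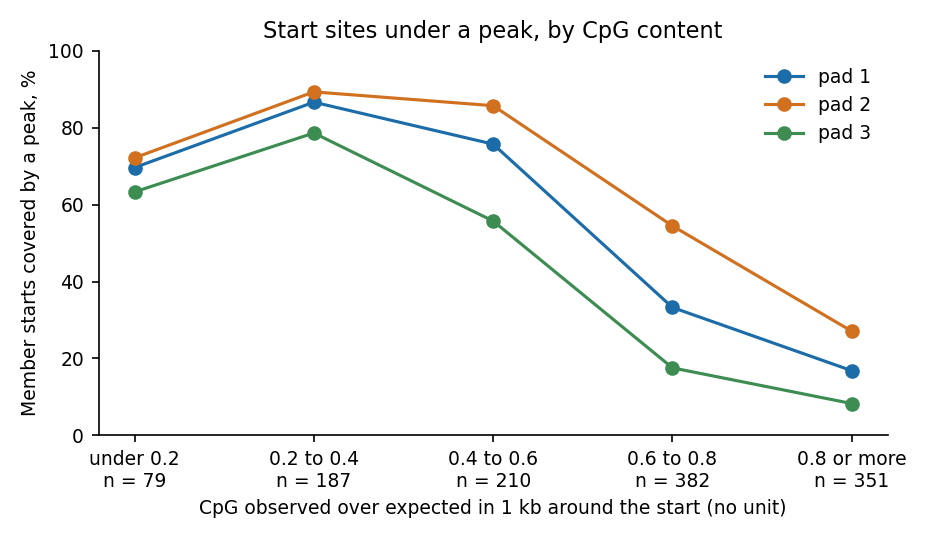
Percent of 5′-most member starts that lie under a peak, by CpG observed over expected in the 1 kb around the start, with a line for each pad and the number of starts under each step. Coverage is highest between 0.2 and 0.4, at 78.6% to 89.3%, and lowest from 0.8 upward, at 8.26% to 27.1%.

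Short promoter motifs were counted on both strands in RefSeq windows of GRCm38 that run from 250 bases before to 50 after a start. A window within 100 bases of the GENCODE start was found for 406 of 684 CpG-rich member starts and 272 of the other 525. GGGCGG, a site bound by Sp and Klf factors, was in 86.2% and 47.8% of these windows, beside 78.5% and 29.2% at all CpG-rich and all other 5′-most starts and 35.7% of all 32851 RefSeq windows. TATAAA was in 6.90% and 12.5%, beside 4.75% and 17.5%, and in 13.6% of all windows. CCAAT was in 40.1% and 34.6%, beside 37.7% and 40.3%, and in 37.4% of all windows. GGAATG, the core of the Tead motif, was in 12.1% and 13.2%, beside 9.93% and 15.3%, and in 14.7% of all windows. CANNTG, the E-box bound by Twist and myogenic factors, was in 54.7% and 68.4%, beside 58.1% and 75.8%, and in 72.3% of all windows. Of these motifs GGGCGG stood farthest from its background share, and it contains a CpG itself. The starts that were not CpG-rich were not matched for CpG content. Of these, 79 of 525 member starts lay below 0.2 observed over expected, beside 4577 of all 12155. These are matches of letters, not binding sites.

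Genes that shape the face were among those marked. The list of facial mesenchyme genes had 16 of 32 members (50%, beside 7.01% of all genes), and another 6, Alx4, Msx1, Prrx1, Pax3, Lhx6 and Six2, were reached by a wider region only. By pad, 68.8%, 81.3% and 59.4% of the list had a peak within 1 kb of a start, against the 12.1%, 11.9% and 8.33% of all genes given above. The median percentile of signal over its 17 regions was 68.9, beside 66.3 over all members. Prrx2, a homeobox gene of the facial mesenchyme, had a start under a peak in all pads, signal at percentiles 95.7, 95 and 89.5, and the highest pileup at -1483, -1486 and -1486 bp, where negative positions lie upstream. Ebf3, a transcription factor gene, had the strongest region of the list at percentiles 99.3, 99.1 and 99.1, over an internal start. Msx2, a target of BMP signalling, reached 89.6, 90.8 and 93.3 with the pileup 6742 to 8233 bp downstream. Twist2, a factor of dermal mesenchyme, was marked only upstream of its CpG-rich start, at percentiles 70.2, 54.5 and 19.6. Pdgfra, the receptor that marks fibroblast precursors, had a region upstream of its 5′-most start and another downstream of an internal start, and both starts lay under a peak in 0 pads. Alx1 had its pileup at -3103, -4840 and -4848 bp, with percentiles of 66.3, 23.7 and 90.9 that differed widely between pads.

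**Figure D4:**
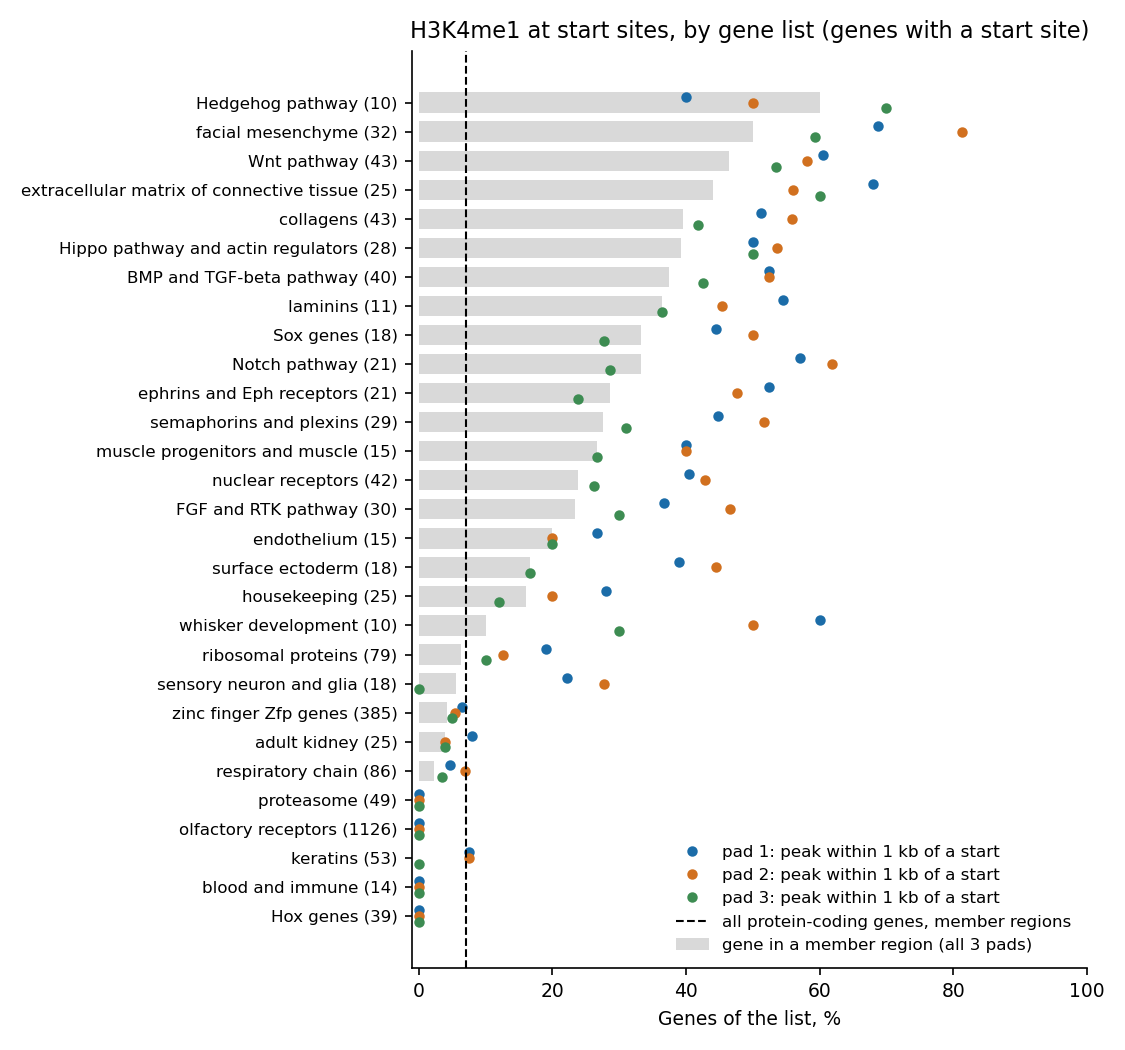
Percent of genes with an H3K4me1 region at a start, by gene list, with the number of listed genes that have a start in brackets. Grey bars give genes in a member region of all 3 pads, points give each pad's own peaks within 1 kb of a start, and the dashed line is the 7.01% of all protein-coding genes. The line applies to the bars, and for the points the shares of all genes were 12.1%, 11.9% and 8.33% in pads 1, 2 and 3. Facial mesenchyme, matrix and signalling lists stand above both in every pad. So do the muscle, endothelium, surface ectoderm and housekeeping lists, among others. Olfactory receptor, Hox, proteasome and blood genes are at 0.

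Matrix genes of connective tissue were marked in 11 of 25 cases (44.0%, beside 7.01% of all genes). All 11 were marked at the 5′-most start, 3 of these starts were CpG-rich, and 6 lay under a peak in all pads, none of the 6 CpG-rich. Over all 1209 member starts 352 (29.1%) were covered in all pads. Dcn, which codes for the proteoglycan decorin, had its highest pileup 62, 62 and 67 bp downstream of the start, at percentiles 74.1, 72.7 and 95.3. It was among 16 members in all with the pileup within 100 bp of a start in every pad, the strongest of which were Sorbs3, St5, Btbd3, Dcn and Thsd4. Postn had it at -49 and -81 bp in pads 1 and 2 and at -2554 bp in pad 3. Col6a3, a chain of type VI collagen, had it 729 to 894 bp downstream with steady signal at percentiles 95, 94.0 and 95.7. Col1a1 was stronger in pads 1 and 2, at 97.8 and 97.6, than in pad 3, at 83.5, and its pileup lay upstream, at -7395, -7233 and -2297 bp. Among all 43 collagens 17 were member genes (39.5%). Col4a1 and Col4a2, chains of basement membrane collagen read in opposite directions, shared a region whose pileup lay 1266 to 1896 bp into Col4a2.

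Genes of the Wnt pathway, which acts at the outset of follicle formation, were marked in 20 of 43 cases (46.5%, beside 7.01% of all genes). Another 3, Wnt5a, Fzd7 and Axin2, lay in wider regions. Lef1 and Wnt10b were left out of this list and counted with the whisker genes below, and neither was a member. Of 18 genes marked at the 5′-most start 15 were CpG-rich, 5 lay under a peak in all pads and 8 in 0 pads. All of the 8 were CpG-rich, and over all 1209 member starts 425 (35.2%) were covered in 0 pads. Among ligands, Wnt11 was strong at percentiles 96.9, 94.7 and 94.0 with the pileup 8693 to 8851 bp downstream, and Wnt6 was weaker at 70.1, 72.9 and 25.3. Among receptors, Ror2 had signal at 92.1, 86.9 and 95 and Ror1 at 85.5, 67.0 and 92.8, both with pileups more than 3 kb inside the gene. Fzd1 had its pileup 2065 to 2623 bp downstream, and Fzd4 was among the weaker members at 28.9, 0.486 and 24.5. The secreted inhibitors differed in form. Dkk1 had a CpG-poor start covered in all pads, with the pileup 148 to 804 bp downstream, while Sfrp1 and Sfrp2 had CpG-rich starts that were covered in all pads all the same. Wif1 was covered in 0 pads with the pileup 6387 to 6466 bp downstream. Nkd1, an intracellular inhibitor that is itself a Wnt target, reached 96.0, 94.8 and 91.3 with the pileup 4694 to 4816 bp downstream.

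BMP and TGF-β genes were marked in 15 of 40 cases (37.5%, beside 7.01% of all genes), with Bmp7, Smad3 and Id3 in wider regions. Bmp2, a member, and Bmp4, not a member, were counted with the whisker genes below instead. Receptor genes marked at the 5′-most start, and the Smad5 mediator, had starts under a peak in 0 pads. Acvr1 had its pileup 1812 to 1958 bp downstream, Acvr1b 1750 to 3998 bp downstream, and Smad5 2214 to 3157 bp downstream, with 0 pads over each start. Tgfbr1 was the exception in direction, with the pileup at -2841, -1601 and -2871 bp. Ligand genes varied more. Gdf5, a growth factor gene of the BMP family, and Inhba and Bmp5 had CpG-poor starts covered in all pads, while Gdf6 had a CpG-rich start covered in 1 pad and its pileup 2394 bp downstream in every pad. Grem1, a secreted BMP antagonist, was at steady percentiles of 66.3, 61.5 and 60.3.

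Other signalling pathways were marked at shares from 23.3% to 60%, beside 7.01% of all genes. Hedgehog genes were members in 6 of 10 cases, among them Gli2, Gli3, Sufu, Hhip and Cdon. By each pad's own peaks 4, 5 and 7 of the 10 had one within 1 kb of a start. Shh and Gli1 were left out of this list and counted with the whisker genes below, and neither was a member. Gli2 and Gli3, the transcription factors of the pathway, were the strongest, with Gli2 at 92.2, 91.3 and 85.4 and Gli3 at 90.6, 84.6 and 96.6. Notch genes were members in 7 of 21 cases, led by the ligand Jag1 at 95.8, 93.0 and 95.7 and the receptor Notch2 at 92.9, 90.3 and 90.4. Both had the pileup well inside the gene, at 7905 to 7983 bp for Jag1 and 4162 to 4294 bp for Notch2. FGF and other tyrosine kinase receptor genes were members in 7 of 30 cases, of which Fgfr1, marked at an internal start, was the strongest at 97.0, 96.5 and 95.9. Genes of the Hippo pathway and of the actin skeleton were members in 11 of 28 cases. Tead3, a transcription factor of that pathway, was at 99.2, 98.7 and 94.3, and Tead1 was marked over an internal start at 91.8, 87.9 and 91.1.

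Nuclear receptors, some of which bind small hormones such as retinoic acid, were member genes in 10 of 42 cases (23.8%, beside 7.01% of all genes). The 42 were picked by gene symbol, so not all of them are nuclear receptors. Esrp1, for example, was taken in and was not a member. The median signal percentile of the 13 nuclear receptor regions was 87.5, beside 66.3 over all members. Rara, a retinoic acid receptor, had the strongest region of any member after the repeat-rich predicted gene Gm10800, with total signal at percentiles 99.7, 99.7 and 99.3 over 14881 bp, across an internal start in all pads. Rarg had 2 regions, of which the one over its 5′-most start was at 99.2, 98.9 and 98.6. Rxra, the shared partner receptor, also had 2. The region at its CpG-rich 5′-most start was covered in 0 pads with the pileup 2320 to 3035 bp downstream, and the region at a CpG-poor internal start was covered in 3 pads with the pileup at -150, -148 and 47 bp from it. Cyp26b1, which breaks down retinoic acid, had the longest member region, at percentiles 93.7, 95.5 and 83.7.

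Genes of axon and vessel guidance included 8 of 29 semaphorins, plexins and neuropilins (27.6%) and 6 of 21 ephrins and Eph receptors (28.6%), beside 7.01% of all genes. Ephb3 was the strongest of the latter, at 97.0, 98.2 and 95.6, with the pileup 6880 to 10879 bp inside the gene. Sema3b had a CpG-poor start covered in all pads and its pileup 4090 to 4095 bp downstream. Sox genes were members in 6 of 18 cases, Sox5, Sox6, Sox8, Sox9, Sox11 and Sox18.

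Lists for other cells of the pad gave lower shares than the facial mesenchyme list, and they differed between pads. Of all genes, 7.01% were members, and 12.1%, 11.9% and 8.33% had a peak at a start by pad. Muscle genes were members in 4 of 15 cases (26.7%), among them Myf5, Myog and Mef2c. Myod1, Msc, Tcf21, Des, Actc1, Acta1, Myh3, Cdh15 and Chrna1 had no peak at a start in any pad. Endothelial genes were members in 3 of 15 (20%), Erg, Sox18 and Esam, the last with a peak within 1 kb of a start in pad 1 only. Pecam1, Cdh5, Kdr, Flt1, Flt4, Tek, Tie1, Sox17, Emcn, Eng and Robo4 had no such peak in any pad. Surface ectoderm genes were members in 3 of 18 cases (16.7%), among them Grhl3 and Tfap2c. Trp63, Krt14, Krt18, Epcam, Cdh1, Esrp1, Cldn4, Cldn7, Ovol1 and Perp had no peak at a start in any pad. In pads 1 and 2, 7 and 8 of the 18 had a peak at a start, against 3 in pad 3, the same number as the members. Krt5, Krt8, Grhl2 and Dsp had such a peak in pads 1 and 2 and none in pad 3. For nerve and glia the counts were 4, 5 and 0 of 18 (22.2%, 27.8% and 0%). Sox10, the regulator of glial precursors, was again marked in pads 1 and 2 only. Tfap2c had the widest spread of any member, at percentiles 85.8, 91.8 and 1.54. Whether the tissue composition of the pads differed was not tested. Adult kidney genes had a peak at a start in 2, 1 and 1 of 25 cases (8%, 4% and 4%), below the share of all genes in each pad. Aqp1, a water channel also present in vessels, was the sole member (4%). Blood genes had 0 of 14 in every pad. Both lists are short, and whether their shares differ from those of all genes was not tested.

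Whisker genes were represented by Bmp2 alone, 1 of 10 (10%, beside 7.01% of all genes). Its region was at percentiles 35.4, 15.2 and 25.3, with the pileup 2290 to 2860 bp downstream. By each pad's own peaks, 60%, 50% and 30% of the list had a peak within 1 kb of a start. The shares of all genes were 12.1%, 11.9% and 8.33%. Prdm1, the transcriptional repressor that the study centres on, had a peak within 1 kb of a start in pads 1 and 3 and none in pad 2, so it was not a member. Bmp4, Wnt10b and Sox2 were marked at a start in pads 1 and 2 only, and Shh in pad 1 only. Lef1 was reached by a wider region. Gli1, Edar and Krt17 had no peak at a start in any pad.

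Genes of general cell function and of other organs were counted in the same way. Ribosomal protein genes were members in 5 of 79 cases (6.33%), and 19%, 12.7% and 10.1% of them had a peak at a start in pads 1, 2 and 3. Respiratory chain genes were members in 2 of 86 cases and proteasome genes in 0 of 49. Olfactory receptor genes had 0 of 1126, vomeronasal receptor genes 0 of 328, keratin genes 0 of 53 and Hox genes 0 of 39, and of these only keratins had a peak at a start in any pad, 4, 4 and 0 of 53. Zinc finger genes named Zfp were members in 16 of 385 cases (4.16%). Of 25 housekeeping genes 4 were members (16%, above the 7.01% of all genes), and 28%, 20% and 12% had a peak at a start by pad. Actb, which codes for cytoplasmic actin, was covered in 0 pads with the pileup at -1086, -1092 and -1131 bp, and Gapdh was marked within 1 kb of an internal start.

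Genes with a member region only at an internal start were a separate group. Their 430 marked starts lay at a median of 47.1 kb from the 5′-most start, and 23.3% of them were CpG-rich, compared with 56.6% of the 5′-most member starts. They lay under a peak in 60%, 63% and 52.8% of cases. These genes were long, with a median of 103 kb, compared with 23.6 kb for genes marked at the 5′-most start. Gli3 and Tcf7l2 were of this kind, each with the 5′-most start under a peak in 0 pads. Zfp423 had starts of both kinds. Its CpG-rich 5′-most start lay between 2 member regions and was covered in 0 pads, whereas 2 CpG-poor internal starts were covered in all 3. It was 1 of 12 starts with peaks on both sides and none across in every pad, with Ddr2, Fbxl14, Gpa33, Mex3a, Ndst1, Pkdcc, Pnrc2, Prdm16, Rhbdf1, Sertad4 and Ssbp3, and 10 of these 12 were CpG-rich.

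Compared with the 7071 other regions found in all pads, members had peaks of higher GC content. A longer region is more likely to reach a start and the rule also limits length, so peak length is given without a test. The median peak was 4224, 4748 and 3863 bp long in members and 3559, 3843 and 3697 bp in the others, a difference of 665, 905 and 166 bp. The median GC content was 50.7%, 51.0% and 49.6% in members and 47.4%, 47.2% and 46.8% in the others (mean difference 3.31 percentage points ± 0.469, exact permutation p = 0.25, the smallest possible). Total signal gave no common direction. Its median percentile was 74.4, 70.7 and 61.5 in members and 68.5, 58.9 and 63.6 in the others, so members were higher in pads 1 and 2 and lower in pad 3 (mean difference 5.16 ± 6.95, exact permutation p = 0.5). With the highest pileup in place of the total, the mean difference was -1.37.

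**Figure D5:**
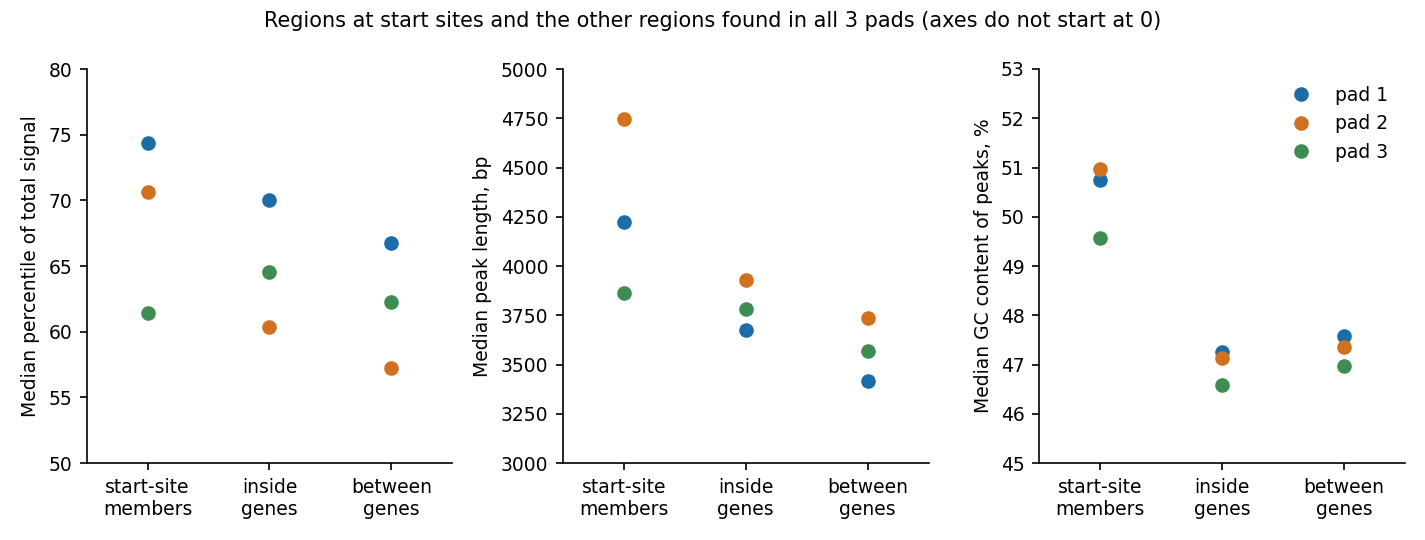
Median percentile of total signal, median peak length in bp and median GC content in percent, for the 1455 members, 4123 other regions inside genes and 2948 between genes, with a point for each pad. Members have the highest GC content in each pad and also the longest peaks, a value that the rule bears on, while in pad 3 their signal percentile, 61.5, lies below that of both other groups, 64.6 and 62.3.

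The strongest members by total signal were, after Gm10800, Rara and Gm21738, those of Il17rd (an inhibitor of FGF signalling), Adgra2 (a coreceptor for Wnt ligands in brain vessels), Pknox2, Scx (a regulator of tendon), Ebf3, Glis2 and Bmf. Il17rd had its highest pileup 519 bp downstream of an internal start in all pads. Gm10800 and Gm21738 are predicted genes with pileups of up to 5524 and 1275 fragments, beside a median of 60 for the highest of each member, and 81.4% and 83.9% of their bases were masked as repeats, compared with a median of 13.7% over members. Pileups of this height also depend on how duplicate reads were treated, which is not known here. The weakest members were those of Cxcl2, Dock9, Mycl, Tbcel and Fdps, at mean percentiles from 10.3 to 11.9. Pads 1 and 2 ranked the members alike (Spearman correlation across the 1455 regions, 0.893, as a description), and pad 3 less so (0.633 with pad 1 and 0.593 with pad 2). The highest pileup lay on the same side of the start in all pads in 85.6% of members.

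Members with the starts of most genes lay in dense gene clusters. A region of 11912 bp came within 1 kb of the starts of 5 genes, Maz, Mvp, Pagr1a, Prrt2 and the predicted Gm42742, at percentiles 95.8, 95.6 and 89.9. A region of the large histone cluster came within 1 kb of 4, Hist1h2ai, Hist1h2bl, Hist1h2bm and Hist1h3h. The starts of Hist1h2bm and Hist1h3h lay inside it, and those of Hist1h2ai and Hist1h2bl lay outside. It was weak in pads 1 and 2, at 19.6 and 2.23, but not in pad 3, at 75.1. Histone genes as a list had a peak at a start in 8, 13 and 22 of 67 cases in pads 1, 2 and 3, so pad 3 was the highest here. These shares were 11.9%, 19.4% and 32.8%, beside 12.1%, 11.9% and 8.33% of all genes. Histone genes are near-identical copies, and whether reads were split among them was not tested. Among 91 regions within 1 kb of the starts of 2 genes, 65 had them on opposite strands.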

How the data were processed

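H3K4me1 CUT&Tag was analysed for 3 pads. Per the labels, the submitters' processing notes name Bowtie2 2.3, SAMtools 0.1.19, bedtools and SEACR 1.3 with mm10; the treatment of duplicates is not given in the sources used here. The authors called peaks in each pad separately with SEACR, stringent mode, keeping the top 1% of blocks without IgG. The deposited signal columns (total and maximum pileup of each peak) were whole numbers with no scaling to depth, so signal was compared as percentiles within each list of 16788, 12969 and 13998 peaks. The study's methods state a target sequencing depth, but the files hold no read number per pad, so no counting interval is given.

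Peaks were merged, measured against GENCODE vM21 basic starts and classed with GRCm38 sequence in Python 3.11.15, NumPy 2.4.6 and SciPy 1.17.1. A region's percentile in a pad is that of its strongest peak there. Differences taken within each pad were tested by an exact two-sided permutation test over pads (sign flips of the per-pad differences, smallest p 0.25 with 3 pads). Scripts were tested on simulated peaks. Genes were named by rule: the strongest, weakest, longest, most and least variable, most CpG-rich and CpG-poor members, those with most regions or genes, those with the pileup at the start, and 16 lists and 30 families; the genes with peaks on both sides of a start, those with printed sequence and those named by pad were picked after their values were seen. Members and lists were chosen with earlier results of these data known. The split of start coverage by CpG class was added after the data were seen. Some items are not reported here.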

Additional observations from a re-analysis of the deposited data

How the results depend on the processing

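Of 72 values under alternative settings, 61 were classed as unchanged, 8 moved and 3 reversed, and the cause was not tested. For the tested differences, unchanged meant only the same direction, so their size could differ. The CpG-rich excess, for example, was 12.7 percentage points with 5′-most starts only. Counts were allowed a limited fold change, and untested shares a change within the SD over pads. The number of member regions was 746 with the stronger 50% of each list and 2405 with a peak in at least 2 pads. Member genes numbered 2400 with at least 2 pads and 1474 to 2183 with a pad left out, the highest without pad 3. The share of members with the highest pileup near a start was 10.6% with 5′-most starts only, 9.64% within 250 bp, 25.7% within 1 kb, and 14.2% to 20.3% with a pad left out, again highest without pad 3. The signal difference between members and other regions was -1.37 by maximum signal and -2.11 by signal per base. Member starts were CpG-rich more often than all starts by 4.84 percentage points, but by -16.7 points when the start base had to lie under the peak. The difference in coverage between CpG-rich and other member starts stayed between -52.2 and -39.1 points under 6 alternatives chosen after seeing the data, the smaller size without pad 3. With 3 pads no test could pass 0.05. No paired analysis was possible because H3K4me1 pads form a single group and IgG was not analysed here. The lists hold no read numbers, so how depth limits these peaks was not measured.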

Other observations

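Member genes were longer than other genes, with a median of 29.9 kb compared with 16.9 kb, and 12.4% of genes over 60 kb were members compared with 5.23% of those under 20 kb. Any start could make a gene a member, and 60.7% of member genes had 2 or more starts, compared with 51.1% of the others. The 1210 genes marked at the 5′-most start had a median of 23.6 kb, and the 242 marked only at another start 103 kb. Member genes also more often held another region of all 3 pads in their body, 35.3% compared with 7.83% of genes without a member region. Within length classes the shares were 7.24% and 1.84% under 20 kb, 30.4% and 6.61% from 20 to 60 kb, and 71.4% and 27.5% above that. Starts of noncoding genes lay within 1 kb of 16.4% of members and 8.67% of the other regions. By chromosome, the share of genes that were members ranged from 5.03% on chromosome 19 to 9.14% on chromosome 1.

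Gm10801, another predicted gene with a member region, had a pileup of up to 1077 fragments, and after it the highest among members was 361, at Adgra2.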
